A study of Mus musculus with 10 samples.

Results

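The suppressors of cytokine signalling (SOCS) and a small set of target genes of signal transducers and activators of transcription (STAT) were examined in the skin of grafted C3H/HeJ mice. The genes were Socs1 to Socs7, Cish, Pim1 and Bcl3, chosen by symbol, and every probe set that the platform annotation assigns to exactly 1 of these symbols was taken. This gave 27 probe sets of 10 genes, out of 45037 probe sets tested and 18193 named genes. Socs1, Socs2, Socs3, Cish, Pim1 and Bcl3 were treated as the induced genes (14 probe sets), because cytokines are known to raise their transcription, and Socs4 to Socs7 as the constitutive ones (13 probe sets). All mice were C3H/HeJ recipients of alopecic skin from C3H/HeJ donors with spontaneous alopecia areata (AA), young adult and free of disease when grafted. An osmotic pump, implanted when the graft was placed, delivered vehicle or baricitinib, which blocks the JAK1 and JAK2 kinases. Skin was taken at week 12 from 5 baricitinib treated and 5 vehicle control mice, with 1 array per mouse, and the labels do not say whether the biopsy held graft or host skin.

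SOCS proteins close a feedback loop. A cytokine receptor activates JAK kinases, which phosphorylate STAT factors, and the STAT factors switch on SOCS genes whose products then bind the receptor or the kinase and dampen it. SOCS1 and SOCS3 also block the kinase directly through a kinase inhibitory region, whereas CIS, the product of Cish, and SOCS2 act chiefly on growth hormone, prolactin and interleukin-2 type receptors. All SOCS proteins carry an SH2 domain, which binds phosphotyrosine, and a SOCS box, which recruits a ubiquitin ligase. Pim1 encodes a survival kinase and Bcl3 an atypical member of the IkB family that acts in the nucleus with NF-kB, and both are known STAT targets. In AA skin, interferon and other cytokines that signal through JAK kinases are known to be active.

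STAT factors bind the gamma-activated site, of which TTCNNNGAA is a common form. It was searched for on both strands (it reads alike on both) from 250 bases before to 50 bases after the transcription start in the RefSeq table of assembly GRCm38.p6. Windows were found for 6 of the 10 genes: Socs1, Socs3, Cish, Pim1, Bcl3 and Socs4. The motif lay in the windows of Socs3 and Cish, and 8.3% of all 32851 windows hold it. The 30 bases around these matches are given because no other window of these genes held the motif. The groups did not overlap for Socs3, and they did for Cish, a known STAT5 target. Bases more than 50 after the start were not searched, so a match nearer to the Socs3 start was not excluded. Capitals mark the motif, and the strand is that of the gene.
Socs3, chr11:117969501-117969530, minus strand: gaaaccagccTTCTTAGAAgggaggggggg
Cish, chr9:107296654-107296683, plus strand: cagttTTCCTGGAAagTTCTTGGAAatctg
The Socs3 match began at base -154, upstream of the start, and the Cish pair at bases 1 and 12 of the transcribed part, counted from the start as base 1. The form that STAT6 binds, with 1 more base between TTC and GAA, and a form of the NF-kB site, GGGA and TTCC with 2 bases between them, were in none of the 7 windows of these genes (Pim1 has 2) and in 6.95% and 1.47% of all windows. These are matches of letters and were not tested as sites.

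The deposited values were log2 expression values made with RMA, which subtracts background, brings the arrays to one common intensity distribution and reduces each probe set to 1 value. Values of different probe sets cannot be ranked against each other, so each is compared with itself across arrays. Vehicle replicate 5 stood apart, correlating with the other arrays at r = 0.697 to 0.729, while those 9 correlated with each other at 0.946 to 0.994. The methods of the study removed 1 vehicle array that the labels do not name. Results are therefore given with all 10 arrays and without vehicle replicate 5. Gapdh and beta-actin are each measured near both ends of the transcript, and the excess of the 3' over the 5' value (the gap) grows as RNA breaks down. This gap was 0.99 to 1.18 log2 in the baricitinib arrays and 1.01 in vehicle replicate 4, but 1.998 to 4.35 in the other vehicle arrays. The tissue label was borne out by the keratinocyte gene Krt5, at 13.04 to 13.67 log2 on all arrays, and the collagen gene Col1a1, at 11.98 to 12.59.

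In limma an adjusted p of 0.05 was reached by 0 of the 27, as by 0% of all probe sets tested (smallest adjusted p 0.221 over all). At an unadjusted p under 0.05 in limma, 5 of the 27 (18.5%) were called, against 14.8% of all probe sets. These were 2 of Socs3 and 1 of Socs7 that were lower with baricitinib (5.62% of all probe sets were called in that direction) and 2 of Socs2 that were higher (9.21%). The split of all calls at that threshold was 37.9% lower, and 54.5% lower when each array was centred on its median. The groups did not overlap at 2 of the 27 (7.41%), against 5.12% of all probe sets. Both were lower, both were of Socs3 and 0 were higher, against 2.03% lower and 3.09% higher of all. Without vehicle replicate 5 again 0 of the 27 passed in limma (0% of all, smallest adjusted p 0.0733 over all). The unadjusted count became 8 (29.6%, against 27.9% of all) and the number without overlap 3 (11.1%, against 8.53% of all). These 3 were all lower (4.11% of all, with 4.42% higher), and of the 8 calls 6 were lower and 2 higher (13.5% and 14.4% of all). These shares were near those of all probe sets, so the genes as a set did not stand out, and the results below are about single genes.

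**Figure D1:**
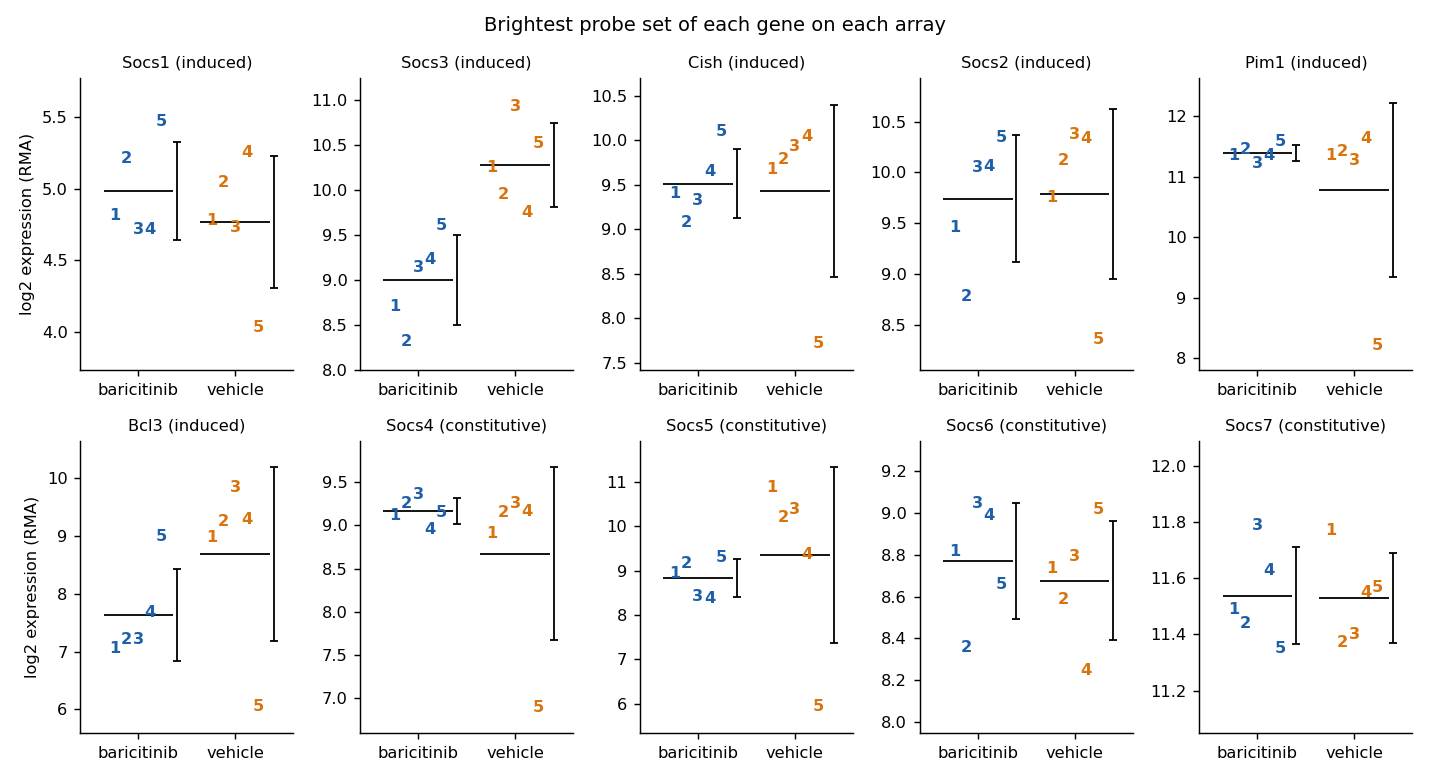
Log2 expression (vertical axis, a different range in each panel) of the brightest probe set of each gene in baricitinib (blue) and vehicle (orange) arrays. Digits are the replicate numbers, the horizontal line is the group mean and the bar beside it ± SD (n = 5). Only Socs3 shows no overlap, with baricitinib arrays at 8.31 to 9.61 and vehicle arrays at 9.75 to 10.93.

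Socs3, the feedback inhibitor of interleukin-6 type and other cytokine receptors, was the one gene of the 10 whose groups did not overlap with all arrays. Its brightest probe set, 1455899_x_at, was at 8.70, 8.31, 9.14, 9.23 and 9.61 log2 in baricitinib replicates 1 to 5 and at 10.25, 9.95, 10.93, 9.75 and 10.51 in vehicle replicates 1 to 5. The highest baricitinib array, replicate 5, lay just below the lowest vehicle array, replicate 4, so the groups were apart by a narrow margin. The difference was -1.28 ± 0.29 (SE, 95% interval -1.93 to -0.63), or 2.43-fold lower, with an adjusted p of 0.221 in limma. An exact permutation test of 5 against 5 arrays gave its smallest possible p, 0.00794 (two-sided, unadjusted, 1 of 27 such tests). It gives that p wherever the groups do not overlap, as at 5.12% of all probe sets, so it only restates the separation. A second probe set, 1456212_x_at, gave the same picture, with baricitinib arrays at 8.01 to 9.15 and vehicle arrays at 9.47 to 10.53 (difference -1.32 ± 0.28, limma adjusted p = 0.221). These probe sets are not independent readings, since they followed each other across the 10 arrays with r = 0.99. The suffix x marks sets with probes that may also bind other transcripts. In whole skin, fewer cells that express a gene and less of its RNA per cell cannot be told apart.

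The third Socs3 probe set, 1416576_at, did not separate the groups. It was at 6.33, 6.06, 6.71, 6.77 and 7.37 in baricitinib replicates 1 to 5 and at 6.55, 6.86, 7.02, 7.53 and 3.15 in vehicle replicates 1 to 5. Vehicle replicate 5, among the 2 highest arrays at the x probe sets, was the lowest here. The difference was 0.43 ± 0.73 with all arrays and -0.34 ± 0.28 without vehicle replicate 5 (SE, limma adjusted p = 0.731 and 0.429). Without that array this probe set correlated with 1455899_x_at at r = 0.565 over 9 arrays, and the 95% interval of its difference ran from -0.96 to 0.28. Without vehicle replicate 5 the x probe sets differed by -1.22 ± 0.30 and -1.26 ± 0.28 (limma adjusted p = 0.0768 and 0.0737), with the groups still apart. The smallest limma adjusted p over all probe sets was then 0.0733. Leaving out vehicle replicate 4 instead brought 1456212_x_at past the threshold (-1.43, limma adjusted p = 0.0478) and left 1455899_x_at just short of it (-1.41, adjusted p = 0.0518). That omission brought 848 of all 45037 probe sets past the threshold, so the crossing was not particular to Socs3.

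At its x probe sets Socs3 moved with RNA quality within the vehicle group. Sorted by the 3' to 5' gap of 1.01, 1.998, 3.03, 4.06 and 4.35, vehicle replicates 4, 2, 1, 5 and 3 had 1455899_x_at values of 9.75, 9.95, 10.25, 10.51 and 10.93, which is the same order. Vehicle replicate 4, whose gap matched that of the treated arrays, was still above each of the 5 baricitinib arrays, by the smallest margin of any vehicle array. With the gap as a covariate the difference was -0.73 with all arrays and -0.71 without vehicle replicate 5, against -1.28 and -1.22 without the covariate (limma adjusted p = 1 and 0.735). The third set, 1416576_at, did not follow that order, at 7.53, 6.86, 6.55, 3.15 and 7.02 in the same vehicle arrays. The covariate moved its difference from 0.43 to -0.85 with all arrays, and from -0.34 to -0.59 without vehicle replicate 5. The baricitinib arrays had nearly equal gaps, so the adjustment for the gap rested on the vehicle arrays. RNA quality and treatment cannot be told apart for Socs3.

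**Figure D2:**
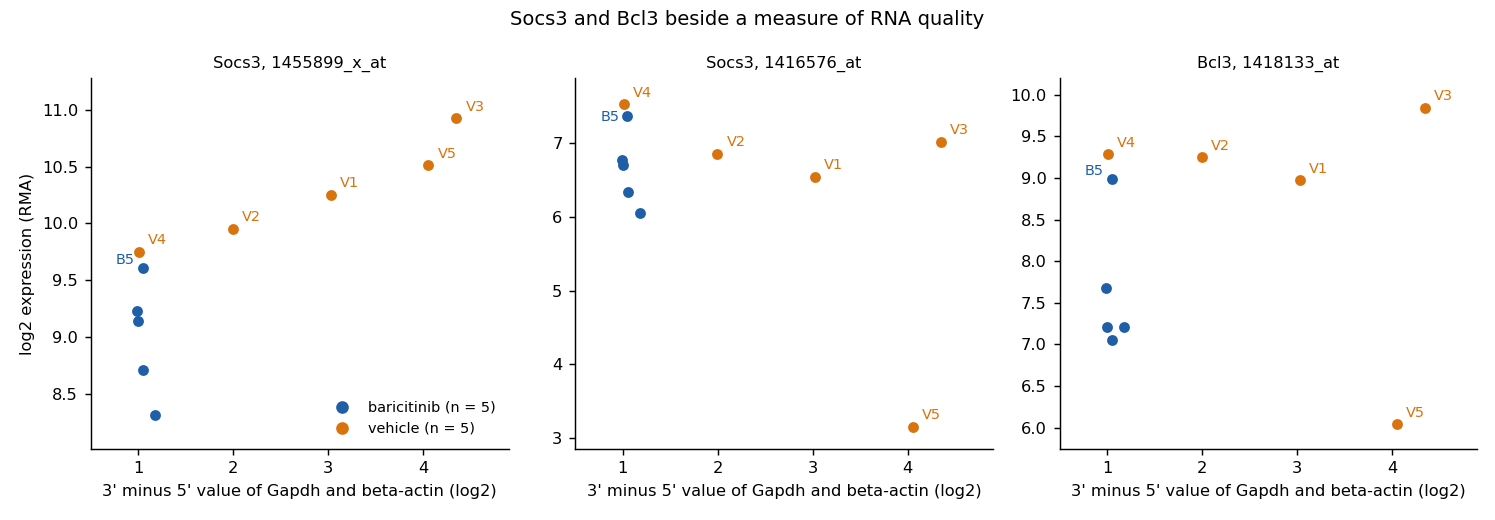
Log2 expression of 2 Socs3 probe sets and of Bcl3 (vertical axes) against the 3' minus 5' control gap in log2 (horizontal axes), 1 point per array, baricitinib blue and vehicle orange. At 1455899_x_at the vehicle arrays rise from 9.75 to 10.93 as the gap widens from 1.01 to 4.35, and the baricitinib arrays lie at 8.31 to 9.61. At 1416576_at and Bcl3 vehicle replicate 5 is the lowest array.

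Bcl3, the nuclear IkB family gene, had the largest difference of the induced genes once vehicle replicate 5 was left out. Its single probe set was at 7.05, 7.21, 7.21, 7.67 and 8.99 log2 in baricitinib replicates 1 to 5 and at 8.97, 9.25, 9.85, 9.29 and 6.05 in vehicle replicates 1 to 5. Baricitinib replicates 1 to 4 lay below vehicle replicates 1 to 4, baricitinib replicate 5 lay just within the range of the latter, and vehicle replicate 5 was the lowest of all 10. The difference was -1.05 ± 0.69 with all arrays and -1.71 ± 0.38 without vehicle replicate 5 (SE, 95% interval -2.56 to -0.86, limma adjusted p = 0.440 and 0.0737). With the 3' to 5' gap as a covariate it was -1.76 with all arrays and -1.50 without vehicle replicate 5 (limma adjusted p = 1 and 0.728). The T cell markers placed the arrays alike: the summed level of the 8 measured was 12.26 log2 in baricitinib replicate 5 and at most 11.60 in the other baricitinib arrays, and 10.50 in vehicle replicate 5 against 12.30 to 12.81 in the other vehicle arrays. Over all arrays that sum ran from 10.06 to 12.26 in baricitinib and from 10.50 to 12.81 in vehicle skin, and 7 of the 8 markers had a negative difference, Cd8a among them (-3.80, limma adjusted p = 0.286). This placing was not particular to T cells. The summed macrophage and dendritic cell markers were at 14.26 in baricitinib replicate 5 and at most 14.01 in the other baricitinib arrays. They were at 13.39 in vehicle replicate 5 and at least 14.09 in the other vehicle arrays. Vehicle replicate 5 was also the lowest vehicle array by the summed neutrophil, keratinocyte, hair follicle and muscle markers. By the fibroblast, adipocyte and endothelial markers it was not the lowest. The part of T cell or other leukocyte number in the Bcl3 values was not tested. For Socs3 1455899_x_at, baricitinib replicate 5 was likewise the highest treated array (9.61), while vehicle replicate 5, with the lowest T cell sum of its group, was the second highest vehicle array (10.51). The part of T cells in the Socs3 values was not tested either.

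The other induced genes did not separate the groups. Socs1, the main brake on interferon-gamma signalling, was at 4.81, 5.22, 4.71, 4.72 and 5.47 in baricitinib replicates 1 to 5 and at 4.78, 5.04, 4.73, 5.26 and 4.03 in vehicle replicates 1 to 5. The group ranges were almost the same, apart from vehicle replicate 5, and the difference was 0.22 ± 0.26 (SE, 95% interval -0.35 to 0.79, limma adjusted p = 0.611). Its 1 probe set was dim, below the median of all probe sets on each of the 10 arrays (5.95 to 6.12), where array values tend to understate changes. Cish was at 9.40, 9.08, 9.32, 9.65 and 10.10 in baricitinib and at 9.67, 9.78, 9.93, 10.04 and 7.71 in vehicle replicates 1 to 5. Leaving out vehicle replicate 5 turned its difference from 0.08 ± 0.43 to -0.35 ± 0.20 (SE, limma adjusted p = 0.916 and 0.269). Then 4 of 5 baricitinib arrays lay below all vehicle arrays and baricitinib replicate 5 lay above them. Pim1, by its bright probe set 1435458_at, was within 11.22 to 11.63 on 9 arrays and at 8.22 in vehicle replicate 5. Its difference was 0.61 ± 0.58 with all arrays and, without that one, -0.03 ± 0.11 (SE, 95% interval -0.28 to 0.23) and the dim second set, 1423006_at, went the other way with all arrays (-0.32 ± 0.29) and gave -0.03 ± 0.11 without it.

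Socs2, the brake on growth hormone signalling, was read by 6 probe sets that fell into differing patterns. The brightest, 1418507_s_at, was at 9.46, 8.78, 10.05, 10.06 and 10.34 in baricitinib and at 9.75, 10.11, 10.38, 10.33 and 8.35 in vehicle replicates 1 to 5 (difference -0.05 ± 0.43, limma adjusted p = 0.954). Its groups overlapped almost wholly. Of the dimmer sets, 1442586_at and 1441476_at were higher with baricitinib (1.01 ± 0.36 and 0.50 ± 0.22, limma adjusted p = 0.271 and 0.323). Without vehicle replicate 5 they kept those differences (1.01 and 0.57) and correlated with each other at r = 0.87, but with the brightest set at 0.17 and 0.13. The brightest set instead went with 1449109_at (r = 0.88), and 1438470_at went with 1442586_at and 1441476_at (r = 0.78 and 0.74), all over 9 arrays. With the 3' to 5' gap as a covariate the difference at 1442586_at was 0.40 with all arrays and 0.36 without vehicle replicate 5, and at 1441476_at 0.47 and 0.44. Baricitinib replicate 4 was the highest array at both, and vehicle replicate 4 the highest vehicle array at 1442586_at (5.50). The set 1446085_at was at 3.73 to 4.39 in baricitinib arrays and at 4.38 to 4.77 in vehicle replicates 1 to 4, but at 9.95 in vehicle replicate 5, which made up most of its difference of -1.54 ± 0.97 (-0.46 ± 0.15 without it). The last pair also hung on vehicle replicate 5, the highest array at both: 1449109_at was at 6.44 to 7.72 in baricitinib arrays, 6.66 to 7.77 in vehicle replicates 1 to 4 and 8.89 in replicate 5, and 1438470_at at 3.81 to 5.74, 4.49 to 4.84 and 7.31. Their differences were -0.45 ± 0.40 and -0.26 ± 0.58, and -0.14 and 0.27 without it. The direction of Socs2 was thus not settled by these probe sets.

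**Figure D3:**
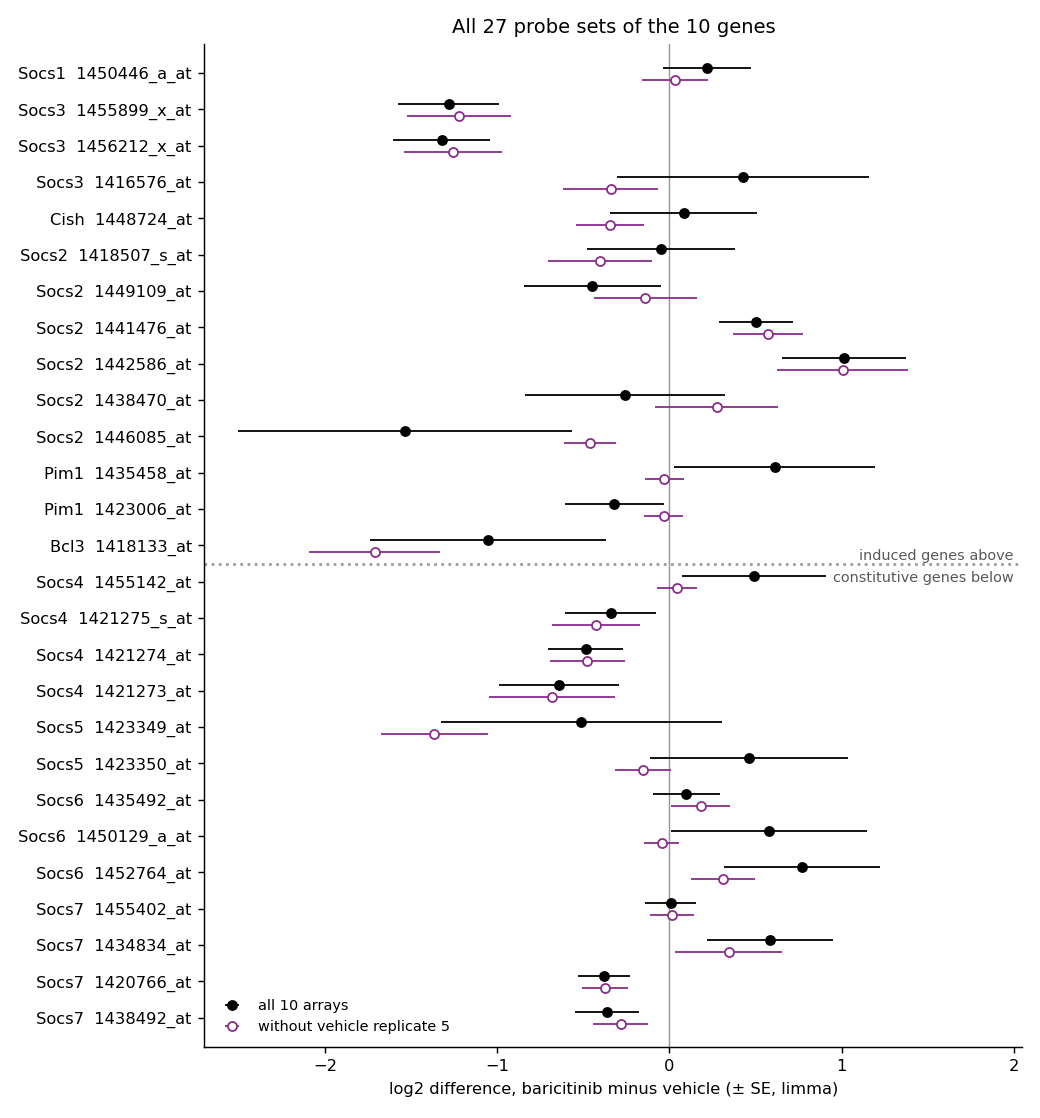
Log2 difference, baricitinib minus vehicle (horizontal axis, ± SE from limma), of each of the 27 probe sets (rows), as filled points for the 10 arrays and open points once vehicle replicate 5 is left out. The x probe sets of Socs3 lie at -1.28 and -1.32 in the first and hardly move in the second, whereas Bcl3 moves from -1.05 to -1.71 and the Socs5 probe set 1423349_at from -0.51 to -1.36.

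Among the constitutive genes, the brightest probe sets of Socs4 and Socs7 had differences of 0.04 and 0.02 once vehicle replicate 5 was left out, and that of Socs6 of 0.18 ± 0.17. Socs7, by its bright set 1455402_at, was at 11.49, 11.44, 11.79, 11.63 and 11.35 in baricitinib and at 11.77, 11.37, 11.40, 11.55 and 11.57 in vehicle replicates 1 to 5. The groups overlapped throughout, vehicle replicate 5 included, and the difference was 0.01 ± 0.15 (SE, 95% interval -0.32 to 0.33). Socs6, known to target receptor tyrosine kinases and insulin receptor substrates, was at 8.36 to 9.05 and 8.25 to 9.02 in the groups by 1435492_at (difference 0.10 ± 0.19, 95% interval -0.34 to 0.53). Its other sets, 1450129_a_at and 1452764_at, gave 0.58 ± 0.57 and 0.77 ± 0.45, and -0.04 ± 0.10 and 0.31 ± 0.19 without vehicle replicate 5, which was lowest at both. Socs4, linked to signalling of the EGF receptor, was by 1455142_at at 8.95 to 9.36 in baricitinib arrays and, save for vehicle replicate 5 (6.89), at 8.91 to 9.26 in vehicle arrays (difference without that array 0.04 ± 0.12, 95% interval -0.22 to 0.31). The other 3 Socs4 sets had negative differences of -0.34, -0.49 and -0.64 with all arrays (limma adjusted p from 0.338 to 0.483). Single arrays and the RNA quality covariate moved them: 1421273_at was -0.32 without vehicle replicate 1, 1421275_s_at was -0.16 without vehicle replicate 3, and with the 3' to 5' gap as a covariate 1421274_at was -0.12 and 1421275_s_at 0.015. The dim Socs7 set 1420766_at, below the array median on all 10 arrays, was at 4.24 to 4.64 in baricitinib and 4.64 to 5.05 in vehicle skin (-0.38 ± 0.15, limma adjusted p = 0.301), the similarly dim 1438492_at gave -0.36 ± 0.19, and 1434834_at gave 0.59 ± 0.37, or -0.36 with the gap as a covariate.

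Socs5, also linked to the EGF receptor, was the constitutive gene whose probe sets differed most from each other without vehicle replicate 5. By 1423349_at it was at 8.93, 9.16, 8.42, 8.38 and 9.30 in baricitinib and at 10.87, 10.20, 10.37, 9.36 and 5.93 in vehicle replicates 1 to 5. Vehicle replicates 1 to 3 stood highest, vehicle replicate 4 lay just above the baricitinib arrays and vehicle replicate 5 far below them. The difference was -0.51 ± 0.81, and -1.36 ± 0.31 without vehicle replicate 5, with the groups then apart (SE, limma adjusted p = 0.7103 and 0.0738). The other set, 1423350_at, was at 8.78 to 9.57 in baricitinib arrays and at 9.11 to 9.51 in vehicle replicates 1 to 4 (difference without vehicle replicate 5 -0.15 ± 0.16). The 2 sets correlated at r = 0.14 over those 9 arrays. As at the x sets of Socs3, the vehicle array with the narrow 3' to 5' gap, replicate 4, was the nearest to the treated arrays at 1423349_at. The gap as a covariate, however, moved the difference in opposite ways, from -0.51 to -1.20 with all arrays and from -1.36 to -0.86 without vehicle replicate 5 (limma adjusted p = 1 and 0.728). RNA quality and treatment cannot be told apart here either.

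**Figure D4:**
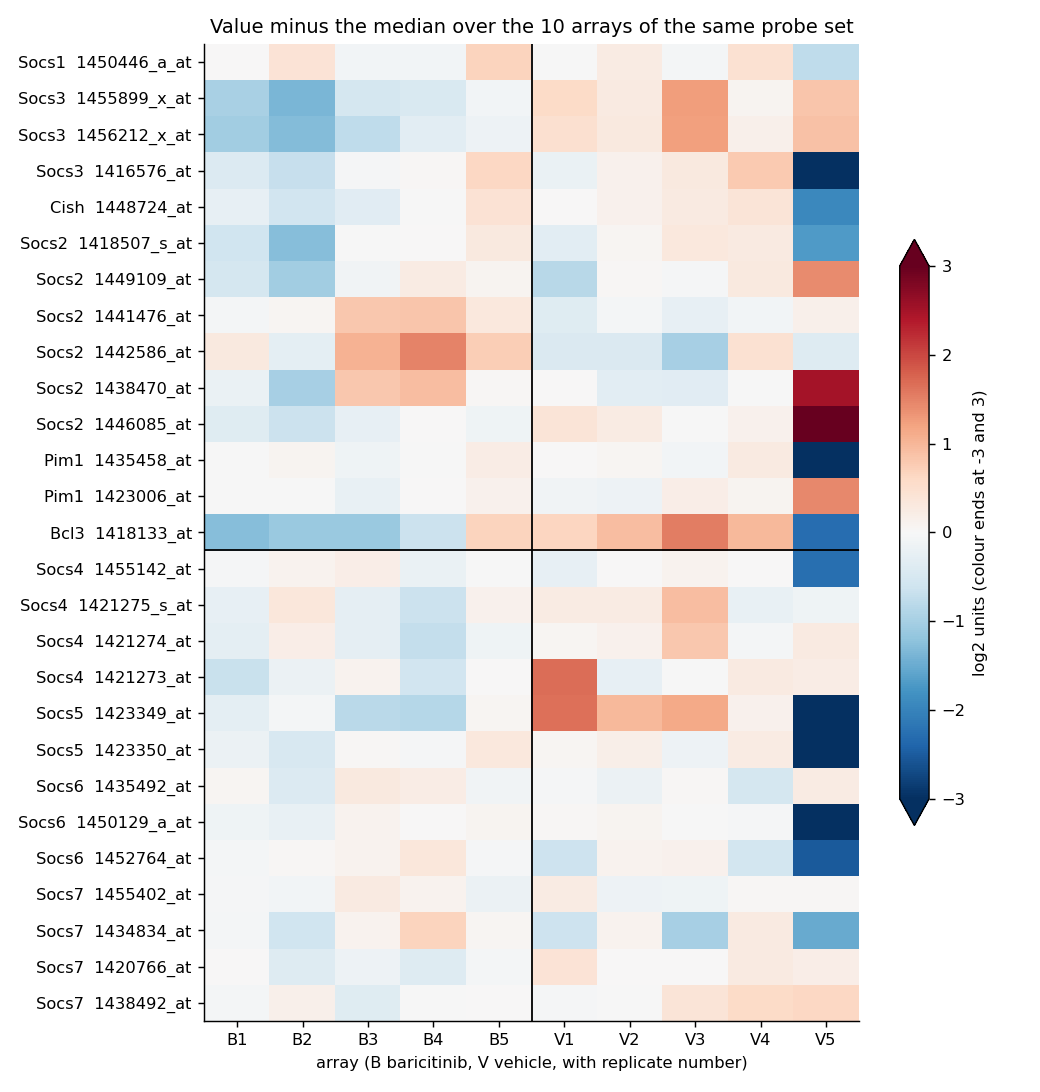
Log2 value of each of the 27 probe sets (rows, induced genes above the line and constitutive genes below) on each array (columns), minus the median of that probe set over the 10 arrays; colours end at -3 and 3. Vehicle replicate 5 (V5) is the darkest column, where the log2 level itself was 3.15 at Socs3 1416576_at and 9.95 at Socs2 1446085_at. Among the other arrays the x sets of Socs3, Bcl3 and Socs5 1423349_at were lower on average with baricitinib, and Socs2 1442586_at was higher.

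Set side by side, by the brightest probe set of each gene, the induced genes had a median difference of 0.02 and the constitutive genes of 0.05, with 0.01 over all named genes. Without vehicle replicate 5 the medians were -0.38 for the induced, 0.03 for the constitutive and -0.06 for all named genes, and 5 of 6 induced and 1 of 4 constitutive genes had a negative difference, against 57.2% of all named genes. Over all 27 probe sets the classes lay closer without that array, with medians of -0.24 and -0.15 and 10 of 14 induced and 8 of 13 constitutive probe sets negative (-0.15 and 0.01, with 8 and 6 negative, on all arrays). The wider contrast thus rests on the choice of the brightest probe set. Within each array the mean of the induced minus the mean of the constitutive genes was -1.12, -1.21, -1.04, -0.71 and -0.27 in baricitinib and -0.94, -0.57, -0.44, -0.19 and -0.87 in vehicle replicates 1 to 5. Baricitinib replicates 1 to 3 were the lowest of the 10 and vehicle replicate 4 and baricitinib replicate 5 the highest, so the groups overlapped. Without vehicle replicate 5 the induced genes ran from -1.71 for Bcl3 and -1.22 for Socs3 through -0.41 for Socs2 and -0.35 for Cish to -0.03 for Pim1 and 0.03 for Socs1. The difference between the classes was not tested.

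Other genes of the pathway were looked at as lists, each gene by its brightest probe set. Over all named genes taken that way, 16% were called at an unadjusted p under 0.05 (6.22% lower and 9.81% higher), and the groups did not overlap at 5.63% (1.82% lower and 3.8% higher). Without vehicle replicate 5, 16.1% were called lower and 13.3% higher. None of the listed genes passed an adjusted p of 0.05 in limma, with all arrays or without vehicle replicate 5. Of 10 JAK and STAT genes, 7 had a negative difference (median -0.14, and -0.49 without vehicle replicate 5), and at an unadjusted p under 0.05 2 were lower and 0 higher (5 and 0 without vehicle replicate 5). The 2 were Stat6, the factor downstream of interleukin-4 (-0.84 ± 0.24), and Stat4, downstream of interleukin-12 (-0.95 ± 0.37; SE, limma adjusted p = 0.230 and 0.292). Of 12 other negative regulators, such as PIAS proteins and phosphatases, 4 were negative (median 0.10, with 1 called lower and 1 higher), and without vehicle replicate 5 the median was -0.11, with 3 called lower and 2 higher. Among them Ptprc, the CD45 phosphatase carried by leukocytes, did not overlap between baricitinib (9.24 to 10.76) and vehicle arrays (10.80 to 11.82), and Pias1 was higher in all baricitinib arrays (9.97 to 10.39 against 9.55 to 9.94). The 6 SOCS box partners had a median of -0.005 and 0 were called in limma with all arrays, at the adjusted or the unadjusted threshold, although the groups did not overlap at 1 of them, which was higher. Of the 6, 2 were called lower and 1 higher at the unadjusted threshold without vehicle replicate 5.

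Of 27 other STAT target genes 13 had a negative difference (median 0.01), a split close to that of all named genes, of which 49.7% were negative. At the unadjusted threshold 1 was lower and 3 higher, a balance that turned without vehicle replicate 5, to 8 lower and 2 higher (median -0.10, 16 negative). Gadd45g, a stress gene, was at 9.63 to 10.16 in baricitinib and 7.91 to 9.81 in vehicle arrays (1.33 ± 0.33), and Igf1, the growth hormone and STAT5 target, was higher in every baricitinib array (9.02 to 9.87 against 7.44 to 8.99, limma adjusted p = 0.224 and 0.248). The 9 measured NF-kB and IkB genes beside Bcl3 had a median of -0.34, with 7 negative and 2 called lower, and without vehicle replicate 5 a median of -0.58 and 6 called lower. Nfkbiz, another nuclear IkB gene, did not overlap between groups (9.91 to 10.53 against 10.62 to 11.16, limma adjusted p = 0.245). Of 17 cytokine genes upstream 13 were negative (median -0.40), with 3 called lower and 1 higher (6 and 1 without vehicle replicate 5). Osm, encoding oncostatin M, was low in signal, at 3.74 to 5.46 in baricitinib and 5.02 to 6.27 in vehicle arrays, beside array medians of 5.95 to 6.12. Its groups overlapped (-1.06 ± 0.34, limma adjusted p = 0.249). Oncostatin M is a known inducer of Socs3, but its part in the Socs3 values was not tested. The adipokine gene Lep was at 7.01 to 9.37 in baricitinib and 4.31 to 6.52 in vehicle arrays (difference 2.67 ± 0.50, limma adjusted p = 0.221). Of 21 receptor genes 12 were negative (median -0.14), with 2 called lower and 2 higher (6 and 2 without vehicle replicate 5). Il6st, which encodes the shared interleukin-6 receptor chain gp130 to which SOCS3 binds, was higher in every baricitinib array (10.82 to 11.72 against 9.76 to 10.81; difference 0.81 ± 0.26, limma adjusted p = 0.249).

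**Figure D5:**
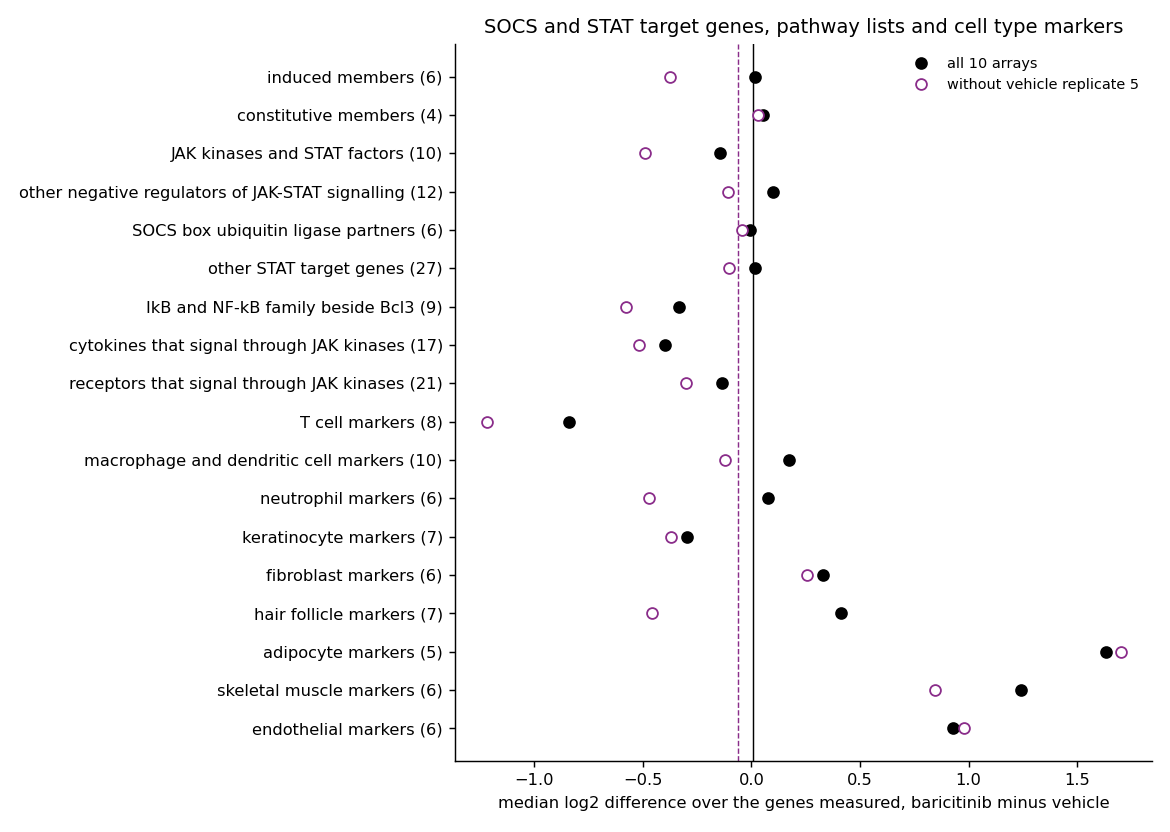
Median log2 difference, baricitinib minus vehicle (horizontal axis), over the measured genes of each list (names on the vertical axis), as filled points for the 10 arrays and open points once vehicle replicate 5 is left out. The vertical lines are the medians over all named genes, 0.01 (solid) and -0.06 (dashed). The induced genes move from 0.02 to -0.38 and the constitutive genes stay at 0.05 and 0.03.

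Markers of other cell types differed between groups to unequal degrees. The summed level of 5 adipocyte markers was 13.26 to 14.39 log2 in baricitinib and 12.48 to 13.60 in vehicle skin, that of 6 muscle markers 14.18 to 15.31 and 13.42 to 14.66, and that of 6 endothelial markers 10.47 to 11.46 and 9.79 to 10.24. The 10 macrophage and dendritic cell markers were at 13.61 to 14.26 and 13.39 to 14.46, and the 6 neutrophil markers at 10.63 to 11.99 and 9.21 to 12.39. The lower vehicle end of both was vehicle replicate 5. The other vehicle arrays were at least at 14.09 and 11.4998, so less of these ranges was shared without it, though they still overlapped. Values on these arrays have no true zero, and the lowest single marker value was 2.50 log2, in the neutrophil list. The 7 keratinocyte markers were at 15.19 to 15.78 and 15.02 to 15.76, the 6 fibroblast markers at 14.35 to 15.07 and 14.07 to 14.52, and the 7 hair follicle markers at 11.54 to 15.52 and 10.84 to 15.07. Vehicle replicate 5 also set the lower vehicle end for the keratinocyte, hair follicle and muscle markers, and the upper one for the adipocyte markers. The part of these cell types in the SOCS values was not tested.

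The genes whose pattern over the 10 arrays was most like that of each induced gene are given as a description, with no test, since the points share their group and their processing. For Socs3 they were Il18r1, a chain of the interleukin-18 receptor (r = 0.98), Casp12 (0.98) and Rassf5 (0.97). For Bcl3 they were Itgb2, the leukocyte integrin beta chain (0.98), the interferon-induced Helz2 (0.98) and the transporter gene Slc15a3 (0.98), and each r was also 0.98 without vehicle replicate 5. The patterns of Socs2 and Cish were nearest to H2-D1 (0.98) and Trim25 (0.995). That of Socs1 was nearest to Tnfrsf12a (0.96, and 0.90 without vehicle replicate 5), and that of Pim1 to Cln8 (0.999, and 0.96 without vehicle replicate 5).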

How the data were processed

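Skin RNA was amplified with a NuGen Ovation kit, biotin labelled with NuGen Encore and read on Affymetrix Mouse430_2 arrays. The deposited log2 values, 1 for each probe set, come from RMA, which the authors ran on this experiment alone. Its version and the genome build were not given in the sources used here. RMA gives all arrays the same distribution of probe intensities, so array means hold no depth. Of 45101 probe sets, 64 controls were set aside; 34945 had 1 symbol in the platform annotation, 932 several and 9160 none, and only the first kind was named. Groups and replicate numbers came from the sample titles.

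Groups were compared with limma 3.58.1 in R 4.3.3 (lmFit, eBayes, two-sided, Benjamini-Hochberg over all 45037 probe sets, threshold 0.05, no filter), and single probe sets also with an exact permutation test over 252 assignments. In list medians each gene is represented by its brightest probe set on average. The genes and lists were chosen with earlier results of these data known, so no p was adjusted over a list and none is given for a score. The 18 lists held 188 genes, of which 171 were measured. Text names all 10 genes and the list genes with the smallest limma p (up to 2 a list, not all printed). It also names genes most like each induced gene by Pearson r among probe sets with a mean of at least 6. These are 3 each for Socs3 and Bcl3 and the nearest 1 for each of the others. The fit was tested on simulated data first. The number of arrays limits the precision. A planned comparison of SOCS protein sequences was not run. Alternatives were each array left out, arrays centred on their median, cyclic loess, a filter on dim probe sets, 1 probe set per gene, another variance model, quality weights, a replicate block and the 3' to 5' gap as a covariate.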

Additional observations from a re-analysis of the deposited data

Results flagged for a closer look

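In each group of 5 arrays the highest or lowest value was called far from the others where its gap to the nearest array exceeded 0.71 of the range of the group. Chance alone gives about 1 such call in 20 groups, and 12 were found in the 54 groups of the 27 probe sets. Of these, 11 were on vehicle replicate 5. It was lowest at Socs3 1416576_at (3.15 log2), Cish (7.71), Pim1 1435458_at (8.22), Bcl3 (6.05), Socs4 1455142_at (6.89), Socs5 1423350_at (6.26), Socs6 1450129_a_at (4.92) and Socs6 1452764_at (3.22). It was highest at Socs2 1438470_at (7.31), Socs2 1446085_at (9.95) and Pim1 1423006_at (6.28). The x probe sets of Socs3 were not among them. The remaining value was vehicle replicate 1 at Socs4 1421273_at (6.65), the highest of its group.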

How the results depend on the processing

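With all 10 arrays 0 probe sets passed the threshold, and from 0 to 848 did when 1 array was left out (848 without vehicle replicate 4, 12 without baricitinib replicate 5). Array quality weights, from 0.0289 for vehicle replicate 5 to 5.43 for baricitinib replicate 1, gave 9676, whereas leaving out vehicle replicate 5 gave 0. Of the 27 probe sets of SOCS and STAT target genes, 0 to 1 passed with 1 array left out. The 1 was Socs3 1456212_x_at without vehicle replicate 4, where 848 of all 45037 probe sets passed. With array weights 4 of the 27 passed: Bcl3 (-1.86), Socs5 1423349_at (-1.43) and both x sets of Socs3. That was a smaller share than the 9676 of 45037 among all probe sets. The number without overlap was 2 to 4 with 1 array left out (4 without vehicle replicate 3, or 14.8% against 5.76% of all probe sets, and 3 without vehicle replicate 4, against 17.5%) and 4 with arrays centred on their median (5.67% of all). With 1 array left out the x sets of Socs3 stayed between -1.43 and -1.11 and between -1.46 and -1.17, and Bcl3 between -1.71 and -0.76. The replicate numbers did not visibly pair the samples (correlations of deviations from the group mean -0.23 to 0.09). Vehicle replicate 5 enters the vehicle mean behind these deviations, so this check cannot settle pairing. With the replicate block 0 of the 27 passed. Matched by these deviations, the baricitinib array fell nearest to the vehicle array of its own number for replicate 2 alone.

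Many directions turned. With 1 array left out Cish ran from -0.35 to 0.24, Pim1 1435458_at from -0.029 to 0.82, Socs2 1418507_s_at from -0.41 to 0.19, Socs2 1438470_at from -0.46 to 0.27, Socs3 1416576_at from -0.34 to 0.75, Socs5 1423350_at from -0.15 to 0.66, Socs6 1435492_at from -0.01002 to 0.20, Socs6 1450129_a_at from -0.043 to 0.75 and Socs7 1455402_at from -0.055 to 0.067. With array weights Cish was -0.32, Pim1 1423006_at 0.0032, Socs2 1438470_at 0.21, Socs3 1416576_at -0.31, Socs5 1423350_at -0.16 and Socs6 1450129_a_at -0.077. Cyclic loess gave -0.20 for Cish, -0.22 for Socs6 1435492_at and -0.16 for Socs7 1455402_at, and centring -0.064 for the last. With the 3' to 5' gap as a covariate, and then also without vehicle replicate 5 (a setting chosen after seeing the data), the values were -0.56 and -0.41 for Cish, 0.14 and 0.038 for Pim1 1423006_at, -0.40 and -0.18 for Pim1 1435458_at, -0.25 and -0.20 for Socs1, 0.33 and 0.13 for Socs2 1438470_at, -0.85 and -0.59 for Socs3 1416576_at, 0.015 and 0.081 for Socs4 1421275_s_at, -0.56 and -0.36 for Socs5 1423350_at, -0.28 and -0.057 for Socs6 1450129_a_at, -0.36 and -0.32 for Socs7 1434834_at and -0.00125 and -0.00585 for Socs7 1455402_at. Socs4 1455142_at was -0.10 with the covariate and all arrays. The causes were not tested. Of the alternatives of single probe sets, 450 kept their direction and side of the threshold, 51 turned direction, 5 moved past the adjusted threshold in limma and 7 were under 0.05 in the unadjusted exact permutation test. That test was run on the 27 probe sets alone, so the 7 have no share of all probe sets to be set beside. The replicate block, the other variance model, the dim filter, 1 probe set per gene and the permutation test leave each difference as it is. These alternatives could not turn a direction, so the 450 is no measure of stability. Signal was low, below the array median on all 10 arrays, at 4 of the 27.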
